A study of Homo sapiens with 4 samples.

Results

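The 10 genes described here are 2 receptors of the ERBB family, EGFR and ERBB3, the EGF-type ligands AREG, EREG, HBEGF and TGFA, and the feedback genes ERRFI1, SPRY2, SPRY4 and DUSP6. They were chosen by gene symbol for their place in the pathway, with earlier results of these data known. Each had exactly 1 row among the 60612 genes of the deposited table. RNA was sequenced from NCI-N87, a cell line from a human gastric carcinoma that is known for amplification of ERBB2. The vector PLVX-IRES-Puro-ZSCAN18, which expresses the zinc finger protein ZSCAN18, was used for 2 libraries, and PLVX-IRES-Puro without an insert (the empty vector) for the other 2. All cells were transfected for 24 hours, and the labels give 5 days with the vector and 4 days of puromycin. How these times overlap is not stated. The transfection, the vector backbone and the antibiotic were common to both groups. The labels do not say whether the libraries of a group came from separate cultures, so the p-values cover the spread between these 4 libraries, part or all of which may be technical.

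ERBB receptors are cell surface tyrosine kinases that act in pairs. A ligand of the EGF type is made as a membrane protein, is cut off by a protease and binds EGFR, which then pairs with itself or with ERBB2, a receptor without a ligand of its own. ERBB3 has a very weak kinase and acts mainly as the partner that recruits PI3K. Signals run through RAS and RAF to the kinases MEK and ERK, and active ERK induces genes that restrain the same route, among them DUSP6 and the Sprouty genes. In gastric epithelium EGFR ligands are known for their part in growth and repair of the lining.

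With ZSCAN18, DUSP6 and EGFR were the members with the lowest p and stood at lower levels, and AREG stood at a higher level, but 0 of the 10 genes passed the gene test. The test was limma on log2(FPKM + 1) over the 11822 genes that reached an FPKM of 1 in 2 or more libraries, with two-sided p-values adjusted by Benjamini-Hochberg and a threshold of 0.05. FPKM is a fragment count scaled to transcript length and to the mapped fragments of the library, and a log2 fold change here is ZSCAN18 over empty vector on the log2(FPKM + 1) scale, which understates the change of genes with low FPKM. Over all tested genes 1.77% passed, 0.795% higher and 0.973% lower. In limma 3 of the 10 members, 1 higher and 2 lower, had an unadjusted p under 0.05, as did 26.8% of all tested genes (15.9% higher and 11% lower). The libraries of the 2 groups did not overlap in 6 of the 10 members, 2 with the ZSCAN18 libraries higher and 4 with them lower, and in 60.2% of all tested genes, 35.8% with the ZSCAN18 libraries higher and 24.4% lower. The median log2 fold change was -0.05 over the members and 0.04 over all tested genes. All 10 members passed the filter on low FPKM.

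The start regions of DUSP6, EGFR and AREG are shown because these were the 3 members with the smallest unadjusted p. Each runs from 250 bases before to 50 bases after the gene start in RefSeq (GRCh38.p14), which is also the start in the deposited table, and is written 5′ to 3′ on the strand of the gene. Capitals mark matches on either strand to the letters GGGCGG (bound by SP1), TGACGTCA (a cyclic AMP response element) and TATAAA (the TATA box). The letters CCGGAAG, of ETS factors, were also searched, as were those of AP-1, TGANTCA, and neither matched any of the 3.
DUSP6, chr12:89352452-89352751, minus strand: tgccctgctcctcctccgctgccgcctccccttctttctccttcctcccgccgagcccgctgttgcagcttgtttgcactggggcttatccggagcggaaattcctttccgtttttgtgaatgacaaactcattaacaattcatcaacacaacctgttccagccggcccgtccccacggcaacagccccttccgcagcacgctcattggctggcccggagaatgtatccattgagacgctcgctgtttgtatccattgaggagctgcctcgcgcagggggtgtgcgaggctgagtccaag
EGFR, chr7:55018767-55019066, plus strand: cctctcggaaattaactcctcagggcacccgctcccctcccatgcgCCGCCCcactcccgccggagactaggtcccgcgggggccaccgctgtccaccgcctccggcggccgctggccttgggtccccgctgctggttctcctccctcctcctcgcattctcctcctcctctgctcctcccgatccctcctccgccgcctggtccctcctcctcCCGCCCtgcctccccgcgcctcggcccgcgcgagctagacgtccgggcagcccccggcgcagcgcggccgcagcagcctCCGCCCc
AREG, chr4:74444886-74445185, plus strand: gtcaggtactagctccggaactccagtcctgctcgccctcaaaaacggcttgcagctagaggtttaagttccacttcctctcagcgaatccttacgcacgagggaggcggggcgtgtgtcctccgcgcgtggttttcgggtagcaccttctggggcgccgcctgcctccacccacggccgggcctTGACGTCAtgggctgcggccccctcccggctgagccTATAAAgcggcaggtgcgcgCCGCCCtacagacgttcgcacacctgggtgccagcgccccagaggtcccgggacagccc
The DUSP6 window had 58.3% G and C and held none of the 5 motifs. The EGFR window had 75.3% G and C, 33 CpG and 3 matches to the SP1 letters. The AREG window had 66.3% G and C and held 1 match each to the SP1 letters, the cyclic AMP element and the TATA box. Among 27305 windows of the same length, 1 per RefSeq gene, 44.6% held the SP1 letters, 1.98% the cyclic AMP element and 12% the TATA box, while 10.7% held the ETS letters and 7.76% those of AP-1. Of the 9 members with a window, 7 held the SP1 letters, 1 the cyclic AMP element, 2 the TATA box and 0 the letters of ETS factors or AP-1. The window of SPRY4, 1 of these 7, lies at a RefSeq start that is 2208 bases from its start in the deposited table. The SP1 letters are all G and C, and the 7 windows that held them had 65 to 75.3% G and C. DUSP6 and EREG, without them, had 58.3 and 57.7%, and the median of the 27305 windows was 58.3%. The part of base composition in this count was not tested. These are matches of letters in a short window and say nothing of whether a factor was bound.

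As a check of the labels, ZSCAN18 had an FPKM of 116 and 112 in its own libraries, against 0.108 and 0.144 with the empty vector. The table names the columns of the ZSCAN18 group differently from the sample titles, so they were assigned by elimination, and which of the 2 labelled samples each column holds is not known. Of 7 epithelial markers 6 were at an FPKM of at least 1 in every library and MUC1 was below 1. Their summed FPKM was 3360 to 3520 with ZSCAN18, against 3740 to 4000 with the empty vector. Within this sum KRT8 had 732 and 852 with ZSCAN18, against 1205 and 936 with the empty vector, and EPCAM was also lower. KRT19, at 1611 and 1656 with ZSCAN18, against 1618 and 1622 with the empty vector, overlapped between the groups, as did CDH1. The lower sum was thus not that of the whole class. KRT18, a keratin of simple epithelium, was lower with ZSCAN18 and CLDN4, a tight junction protein, was higher. Both passed the gene test, close to the threshold (adjusted p = 0.0408 and 0.0440 in limma). With the replicate number as a block in the fit, or without the filter on low FPKM, only 1 gene of the whole table passed. That gene was higher with ZSCAN18, so KRT18 did not pass there. All 4 endothelial markers, 5 of 6 fibroblast markers and 4 of 6 leukocyte markers were below 1 in every library. Fibroblast markers summed to 2.03 to 2.64 with ZSCAN18, against 0.818 to 1.86 with the empty vector. Within this sum COL1A1 had 1.46 and 1.09 with ZSCAN18, against 0.994 and 0.469 with the empty vector. The collagen genes COL1A2 and COL3A1 were also higher in both ZSCAN18 libraries, at an FPKM of 0.614 at most. DCN, LUM and PDGFRB were near 0, at 0.0923 at most, so the difference in this sum was that of the collagen genes and not of the class. Leukocyte markers summed to 4.12 to 4.76 with ZSCAN18, against 6.15 to 6.69 with the empty vector, and endothelial markers to 0.0634 to 0.177 with ZSCAN18, against 0.121 to 0.17 with the empty vector. Within the leukocyte sum CD68, a lysosomal protein abundant in macrophages, had 2.27 and 2.72 with ZSCAN18, against 4.22 and 4.53 with the empty vector. LYZ (lysozyme) had 1.70 and 1.97 with ZSCAN18, against 1.85 and 1.88 with the empty vector, and the other 4 were near 0, so the difference in this sum was that of CD68 and not of the class. The part of these differences in the results below was not tested. In bulk RNA fewer cells that express a gene and less RNA per cell cannot be told apart. Depth was estimated at 23200000 and 23400000 fragments with ZSCAN18, against 24000000 and 24900000 with the empty vector.

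**Figure D1:**
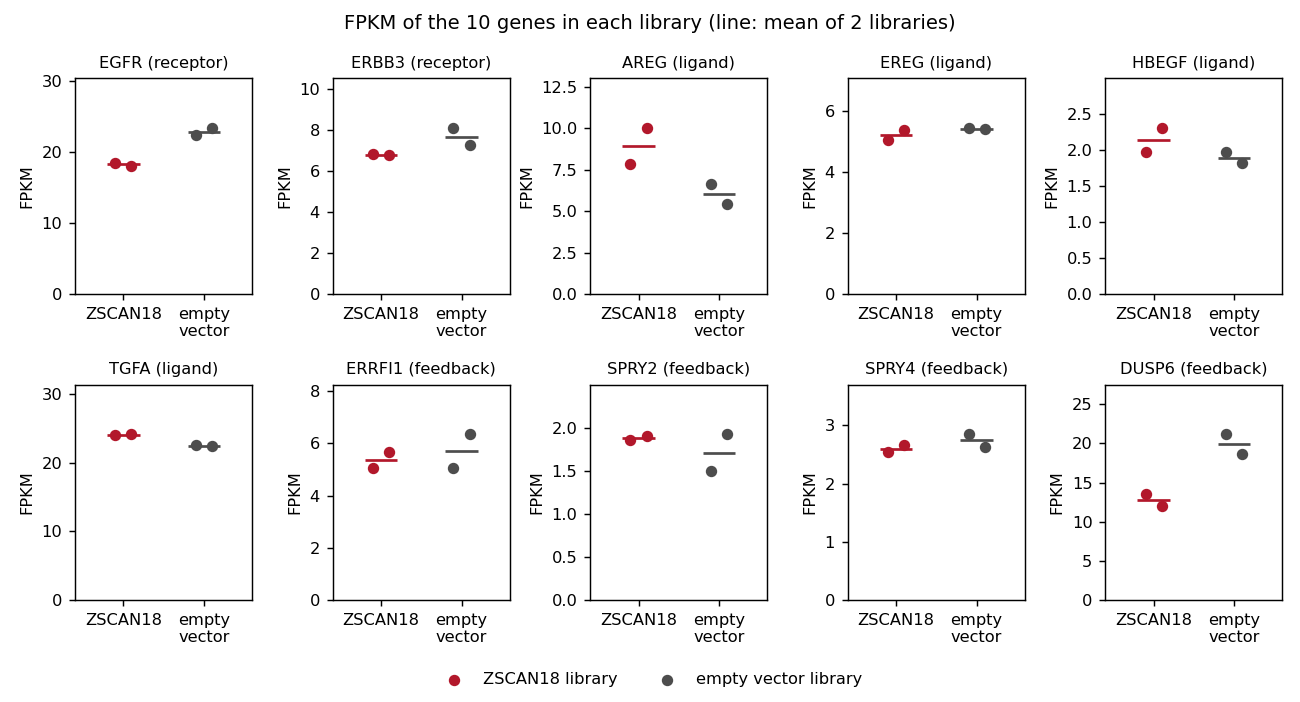
FPKM of each of the 10 genes (vertical axes, each starting at 0) in the 2 ZSCAN18 libraries (left, red) and the 2 empty vector libraries (right, grey); points are libraries and lines are group means. DUSP6 and EGFR lie lower and AREG lies higher in both ZSCAN18 libraries, while the groups overlap in HBEGF, ERRFI1, SPRY2 and SPRY4.

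Both receptors stood lower with ZSCAN18, EGFR by more than ERBB3, and neither passed the test. EGFR (ENSG00000146648, chromosome 7, 55019017 to 55211628, plus strand, GRCh38), the receptor of all 4 ligands, had an FPKM of 18.5 and 18.1 in the ZSCAN18 libraries, against 22.3 and 23.3 in the empty vector libraries. Both ZSCAN18 libraries were below both empty vector libraries, and the gap between the groups was larger than the difference within either. The mean was 18.3 ± 0.310 with ZSCAN18 and 22.8 ± 0.684 with the empty vector (SD, n = 2 each), a ratio of 0.80, and the log2 fold change was -0.31 (SE 0.054, 95% interval -0.46 to -0.16) with an adjusted p of 0.0773 in limma. Of all tested genes, 9.6% had a lower log2 fold change than EGFR.

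ERBB3 (ENSG00000065361, chromosome 12, 56076799 to 56103505, plus strand) had an FPKM of 6.82 and 6.80 in the ZSCAN18 libraries, against 8.10 and 7.28 in the empty vector libraries. The groups did not overlap, but the 2 empty vector libraries differed from each other by more than the second of them differed from the ZSCAN18 libraries. The log2 fold change was -0.15 (SE 0.076, 95% interval -0.36 to 0.06, adjusted p = 0.281 in limma), and it was -0.22 to -0.08 with 1 library left out. ERBB2, the amplified partner receptor of this cell line, had an FPKM of 453.5 and 472.1 with ZSCAN18, against 524.7 and 549.2 with the empty vector. Its log2 fold change was -0.21 (SE 0.049), with an adjusted p of 0.103 in limma, so all 3 expressed receptors had a negative value and 0 of them passed. ERBB4 was below the filter, with an FPKM of 0.0155 at most.

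The make-up of the receptor family was much the same in all libraries. ERBB2 held 94.7 and 95% of the summed FPKM of EGFR, ERBB2, ERBB3 and ERBB4 with ZSCAN18, against 94.5 and 94.7% with the empty vector. EGFR held 3.86 and 3.63% with ZSCAN18, against 4.03 and 4.02% with the empty vector, and ERBB3 held 1.42 and 1.37% with ZSCAN18, against 1.46 and 1.25% with the empty vector. The share of EGFR was thus lower in both ZSCAN18 libraries, whereas that of ERBB3 lay inside the empty vector range. FPKM of EGFR per FPKM of ERBB3 was 2.71 and 2.66 with ZSCAN18, against 2.76 and 3.2 with the empty vector. These shares are descriptions, with no test.

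Among the ligands AREG had the largest difference, and it was also the least even between libraries. AREG (ENSG00000109321, chromosome 4, 74445136 to 74455005, plus strand) encodes amphiregulin, a ligand of EGFR with low affinity. FPKM reached 7.82 and 10.0 in the ZSCAN18 libraries, against 6.62 and 5.45 in the empty vector libraries. Both ZSCAN18 libraries were higher than both empty vector libraries, while the libraries within each group also stood apart. The mean was 8.91 ± 1.54 with ZSCAN18 and 6.04 ± 0.825 with the empty vector (SD, n = 2 each), a ratio of 1.48, and the log2 fold change was 0.49 (SE 0.152, 95% interval 0.07 to 0.91) with an adjusted p of 0.153 in limma. It was 0.33 to 0.65 when 1 library at a time was left out. Of all tested genes, 95.6% had a lower log2 fold change.

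EREG (ENSG00000124882, chromosome 4, 74365145 to 74388749, plus strand) encodes epiregulin, which binds EGFR and ERBB4. It had an FPKM of 5.05 and 5.39 in the ZSCAN18 libraries, against 5.43 and 5.41 in the empty vector libraries. The higher ZSCAN18 library was barely below the empty vector libraries, and the log2 fold change was -0.05 (SE 0.068, 95% interval -0.23 to 0.14, adjusted p = 0.697 in limma), or -0.08 to -0.01 with 1 library left out. EREG and AREG lie on the same strand, 56.4 kb apart, between the genes of 2 further EGF-type ligands. EPGN (epigen), 48.4 kb before EREG, was at an FPKM of 0.0788 at most, and BTC (betacellulin), on the opposite strand 289.8 kb beyond AREG, had 1.36 and 1.95 with ZSCAN18, against 1.62 and 1.97 with the empty vector. FPKM of AREG per FPKM of EREG was 1.55 and 1.86 with ZSCAN18, against 1.22 and 1.01 with the empty vector.

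TGFA (ENSG00000163235, chromosome 2, 70447284 to 70553826, minus strand) encodes transforming growth factor alpha and was the most abundant of the ligands, at 57.7 to 63.8% of their summed FPKM in the 4 libraries. FPKM came to 24.0 and 24.1 in the ZSCAN18 libraries, against 22.6 and 22.4 in the empty vector libraries. The groups did not overlap and the libraries within each were very close, but the difference was small, with a log2 fold change of 0.09 (SE 0.048, 95% interval -0.04 to 0.23, adjusted p = 0.289 in limma). HBEGF (ENSG00000113070, chromosome 5, 140332843 to 140346603, minus strand) encodes a ligand that binds heparin and acts on EGFR and ERBB4. It was low, with an FPKM of 1.96 and 2.30 with ZSCAN18, against 1.97 and 1.81 with the empty vector. The lower ZSCAN18 library was just below the higher empty vector library, so the groups overlapped. Its log2 fold change was 0.11 (SE 0.098, 95% interval -0.16 to 0.39, adjusted p = 0.506 in limma). With 1 library left out the log2 fold change of HBEGF ranged over 0.04 to 0.19. Summed over the 4 ligands, the FPKM was 38.9 and 41.8 with ZSCAN18, against 36.6 and 35.04 with the empty vector.

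**Figure D2:**
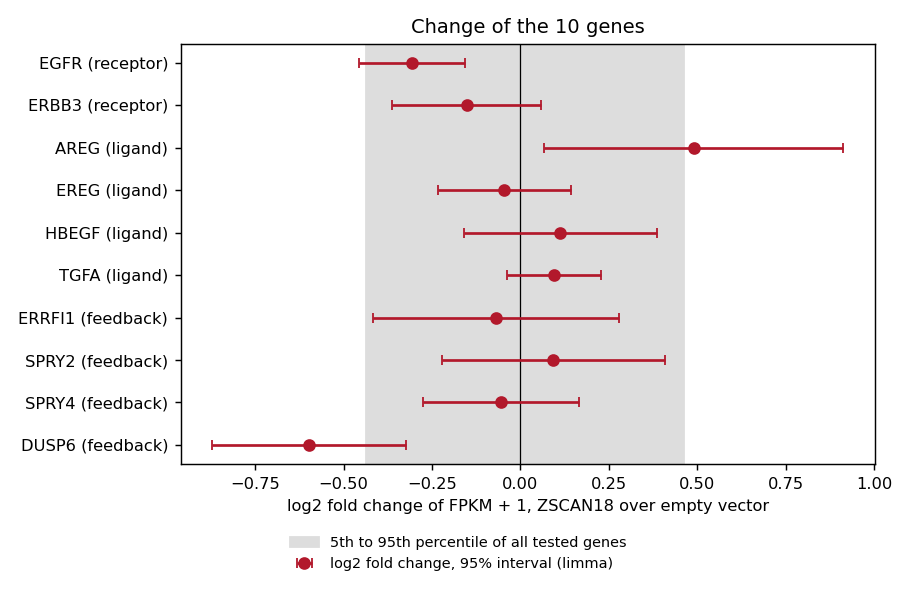
Log2 fold change of FPKM + 1, ZSCAN18 over empty vector (horizontal axis), of the 10 genes, with the 95% interval from limma as bars; the grey band runs from the 5th to the 95th percentile of all 11822 tested genes, -0.44 to 0.46. DUSP6 at -0.60 and AREG at 0.49 lie outside the band, and the intervals of EGFR, DUSP6 and AREG do not reach 0, although their adjusted p was above 0.05.

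Of the feedback genes DUSP6 was lower with ZSCAN18, and the other 3 had overlapping groups. DUSP6 (ENSG00000139318, chromosome 12, 89347235 to 89352501, minus strand) encodes the cytoplasmic phosphatase that dephosphorylates ERK, and its transcription is known to follow ERK activity. FPKM stood at 13.6 and 12 in the ZSCAN18 libraries, against 21.1 and 18.6 in the empty vector libraries. Both ZSCAN18 libraries were below both empty vector libraries, by more than the libraries of either group differed. The mean was 12.8 ± 1.12 with ZSCAN18 and 19.9 ± 1.77 with the empty vector (SD, n = 2 each), a ratio of 0.644, and the log2 fold change was -0.60 (SE 0.099, 95% interval -0.87 to -0.32). Its adjusted p in limma was 0.0723, the smallest of the 10 members, and 2.49% of all tested genes had a lower log2 fold change.

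In the authors' deposited table DUSP6 had a log2 fold change of -0.64, a p of 2.46e-04 and a q of 0.0135. It was the 1 member with a q under 0.05 there, which 2.78% of the 11822 tested genes also had, and 0.624% of all 60612 genes. The table nevertheless marks 0 of the 10 members as significant, against 0.845% of its genes. Its mark stands on exactly the 512 genes with a p under 0.05 and an absolute log2 fold change of at least 1, and 164 genes with a q under 0.05 were not marked. The authors' deposited table gave EGFR a p of 0.0195 and a q of 0.275, and AREG a p of 0.0989 and a q of 0.578. No source used here says whether reads were counted by strand. The gene AC024909 overlaps DUSP6 on the opposite strand and had an FPKM of 0.966 and 1.35 with ZSCAN18, against 1.24 and 1.067 with the empty vector. EGFR, ERRFI1 and SPRY4 also overlap annotated genes on the opposite strand, each at an FPKM under 2, and ERBB2 overlaps the expressed genes MIEN1 and PGAP3.

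SPRY4 (ENSG00000187678, chromosome 5, 142310427 to 142326455, minus strand), a Sprouty protein that restrains receptor signalling upstream of ERK, had an FPKM of 2.54 and 2.67 with ZSCAN18, against 2.85 and 2.64 with the empty vector. The groups overlapped, and the log2 fold change was -0.05 (SE 0.080, 95% interval -0.28 to 0.17, adjusted p = 0.688 in limma), or -0.10 to -0.02 with 1 library left out. SPRY2 (ENSG00000136158, chromosome 13, 80335976 to 80341126, minus strand), its relative, was the lowest member in both groups, with an FPKM of 1.853 and 1.904 with ZSCAN18, against 1.49 and 1.92 with the empty vector. The second empty vector library was the highest of the 4 and the first the lowest, and the log2 fold change of 0.09 (SE 0.113, 95% interval -0.22 to 0.41, adjusted p = 0.631 in limma) became -0.02 without the first empty vector library.

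ERRFI1 (ENSG00000116285, chromosome 1, 8004404 to 8026309, minus strand), also called MIG6, encodes a protein that binds the kinase domain of EGFR and inhibits it. It had an FPKM of 5.05 and 5.69 with ZSCAN18, against 5.07 and 6.34 with the empty vector. The lower libraries of the groups were nearly equal, so the groups overlapped. The log2 fold change was -0.07 (SE 0.125, 95% interval -0.42 to 0.28, adjusted p = 0.747 in limma), and it was 0.07 without the second empty vector library and 0.002 without the first ZSCAN18 library. With 2 libraries per group, the intervals of SPRY2, SPRY4 and ERRFI1 leave room for differences in either direction, and a p above the threshold does not show that these genes were equal.

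By level, TGFA led in the ZSCAN18 libraries, followed by EGFR, DUSP6, AREG and ERBB3, then by ERRFI1 and EREG, and then by SPRY4, HBEGF and SPRY2. There ERRFI1 and EREG overlapped and the other neighbours in this order did not. In the empty vector libraries EGFR and TGFA overlapped at the top, followed by DUSP6, ERBB3 and AREG. AREG overlapped with ERRFI1, ERRFI1 with EREG and HBEGF with SPRY2, while SPRY4 lay between EREG and HBEGF without overlap. So AREG stood above ERBB3 in the ZSCAN18 libraries and below it in the empty vector libraries. Going by the longest annotated transcript and the estimated depths, and for counting error only, SPRY2 rested on about 97 fragments in the library where it had fewest (counting error 10.2%), HBEGF on 108 (9.6%), AREG on 168 (7.7%), DUSP6 on 1236 (2.8%) and EGFR on 4149 (1.6%). Shorter transcripts would give fewer fragments, so these errors may be understated. The longest DUSP6 transcript has 4400 bases, against a median of 1074 over its annotated transcripts.

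Genes of the rest of the pathway gave 0 calls as well. For lists this short, that is near the 1.77% of all tested genes that passed. Of 13 tested further genes known to respond to ERK, 0 passed, 6 had a positive and 7 a negative log2 fold change, and the median was -0.05 beside 0.04 over all tested genes. The sign of this median turned, to 0.02, without the second ZSCAN18 library or without the second empty vector library. In limma 1 of them was higher and 2 were lower at an unadjusted p under 0.05, against 15.9 and 11% of all tested genes. ETV5, an ETS factor often read as a sign of ERK activity together with DUSP6, had an FPKM of 5.78 and 5.53 with ZSCAN18, against 3.78 and 3.25 with the empty vector. It was higher in both ZSCAN18 libraries, opposite to DUSP6, with a log2 fold change of 0.56 (SE 0.090, adjusted p = 0.0699 in limma). FPKM of DUSP6 per FPKM of ETV5 was 2.35 and 2.17 with ZSCAN18, against 5.60 and 5.74 with the empty vector. EGR1, an immediate early factor, had 22.9 and 21.97 with ZSCAN18, against 26.8 and 28.7 with the empty vector (a log2 fold change of -0.29, adjusted p = 0.0917 in limma). DUSP7, a relative of DUSP6, stood at a log2 fold change of -0.24 (adjusted p = 0.160).

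Of 16 tested genes from the adaptors to ERK, 0 passed, as against 1.77% of all tested genes, and 11 had a positive log2 fold change, with a median of 0.17 beside 0.04 over all tested genes. At an unadjusted p under 0.05 in limma 8 were higher and 1 lower, and of all tested genes 15.9% were higher and 11% lower. SOS2, which loads RAS with GTP, had an FPKM of 3.02 and 2.72 with ZSCAN18, against 1.73 and 1.64 with the empty vector (a log2 fold change of 0.53, SE 0.087, adjusted p = 0.0723 in limma). Both ZSCAN18 libraries were higher. PTPN11, the phosphatase SHP2 that relays receptor signals to RAS, had 48.9 and 46.9 with ZSCAN18, against 39.3 and 39.4 with the empty vector, at a log2 fold change of 0.28 (adjusted p = 0.0773). For SOS1, the relative of SOS2, it was 0.27 (adjusted p = 0.109).

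In the list of receptor turnover, 0 of 10 tested genes passed, beside 1.77% of all tested genes. Of the 10, 8 were positive and the median was 0.20, again beside 0.04 over all tested genes. In limma 4 were higher and 1 lower at an unadjusted p under 0.05, where the shares over all tested genes were 15.9 and 11%. CBL, the ubiquitin ligase that marks EGFR for breakdown, had an FPKM of 7.09 and 6.67 with ZSCAN18, against 4.65 and 4.91 with the empty vector. It was higher in both ZSCAN18 libraries (log2 0.45, SE 0.070, adjusted p = 0.0689 in limma). STAM, of the sorting machinery on endosomes, stood at 0.34 (adjusted p = 0.0727), and SH3KBP1, which binds CBL, had -0.26 (adjusted p = 0.0900).

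Of 5 tested genes of ligand shedding 0 passed, where 1.77% of all tested genes did. Their median was -0.11, and 0 had an unadjusted p under 0.05 in limma, which 26.8% of all tested genes had. ADAM10, a protease that sheds some EGF-type ligands, stood at a log2 fold change of -0.24 (adjusted p = 0.198 in limma), and RHBDF2, which carries the protease ADAM17 to the surface, had -0.24 (adjusted p = 0.194); the protease RHBDL2 had -0.11 (adjusted p = 0.293). Of 12 PI3K and AKT genes 0 passed, again beside 1.77% of all tested genes. Their median was 0.09, or 0.04 to 0.12 with 1 library left out, 0.04 being the value without the second empty vector library. Of these 12, 3 were higher and 1 lower at an unadjusted p under 0.05 in limma, so 4 of 12 had such a p, close to the 26.8% of all tested genes. The regulatory subunits PIK3R2 and PIK3R3 had log2 fold changes of -0.34 (adjusted p = 0.0827) and 0.28 (adjusted p = 0.121), and the catalytic subunit PIK3CA had 0.23 (adjusted p = 0.168). Of 7 other EGF-type ligands 2 were tested, BTC at -0.08 (adjusted p = 0.766) and NRG4, a ligand of ERBB4, at -0.02 (adjusted p = 0.895), and the other 5 were below the filter.

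**Figure D3:**
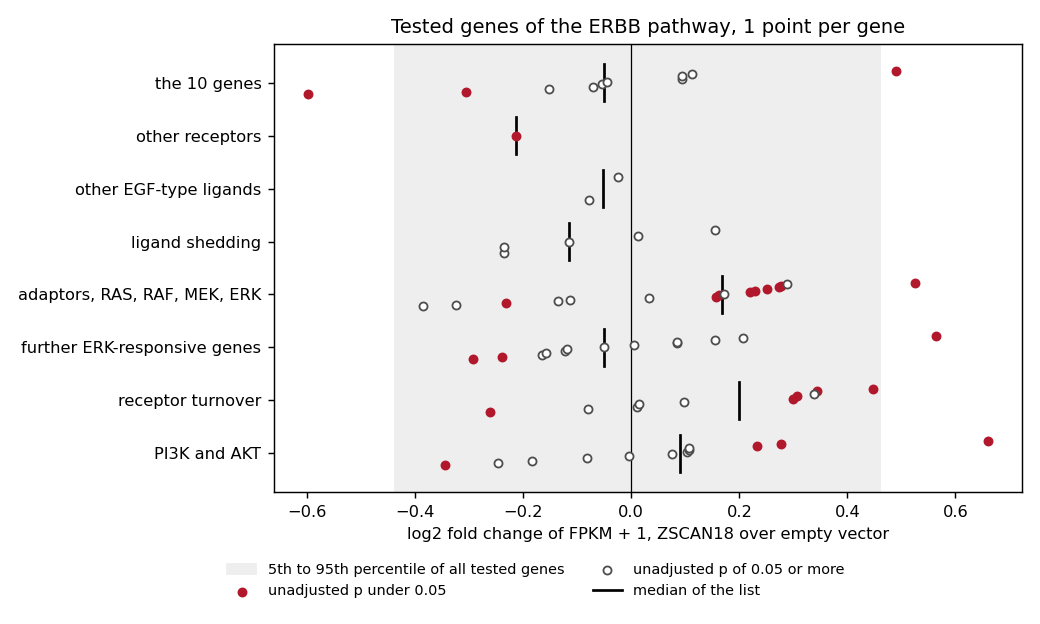
Log2 fold change of FPKM + 1, ZSCAN18 over empty vector (horizontal axis), of each tested gene of the 10 described here and of 7 lists of the same pathway; filled points have an unadjusted p under 0.05 in limma, black lines are medians, and the grey band is the 5th to 95th percentile of all tested genes. Medians lie between -0.21 in the list of other receptors, where ERBB2 alone was tested, and 0.20 in the list of receptor turnover. Of the genes shown 0 passed at an adjusted p under 0.05, where 1.77% of all tested genes did.

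The genes outside the 10 whose pattern was most like that of DUSP6 were PLAAT2, NRM and IFIT2. Likeness was the Euclidean distance between log2(FPKM + 1) values centred on their mean over the 4 libraries, which came to 0.0666, 0.0697 and 0.0772. IFIT2, which had the highest level of these 3, had an FPKM of 7.23 and 6.004 with ZSCAN18, against 11.2 and 10.4 with the empty vector. With 4 libraries such likeness says little beyond the size and sign of the difference between the groups.

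0 of the 10 members passed under any of the 12 other settings tried. The count over all genes depends on the settings: as deposited 94 genes were higher and 115 lower, after median-of-ratios scaling 93 were higher and 187 lower, and with any library left out 0 or 1 gene passed. DUSP6 kept a log2 fold change between -0.68 and -0.51 and an adjusted p between 0.0677 and 0.221 over these settings, and EGFR one between -0.35 and -0.26 with an adjusted p between 0.0667 and 0.233.

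**Figure D4:**
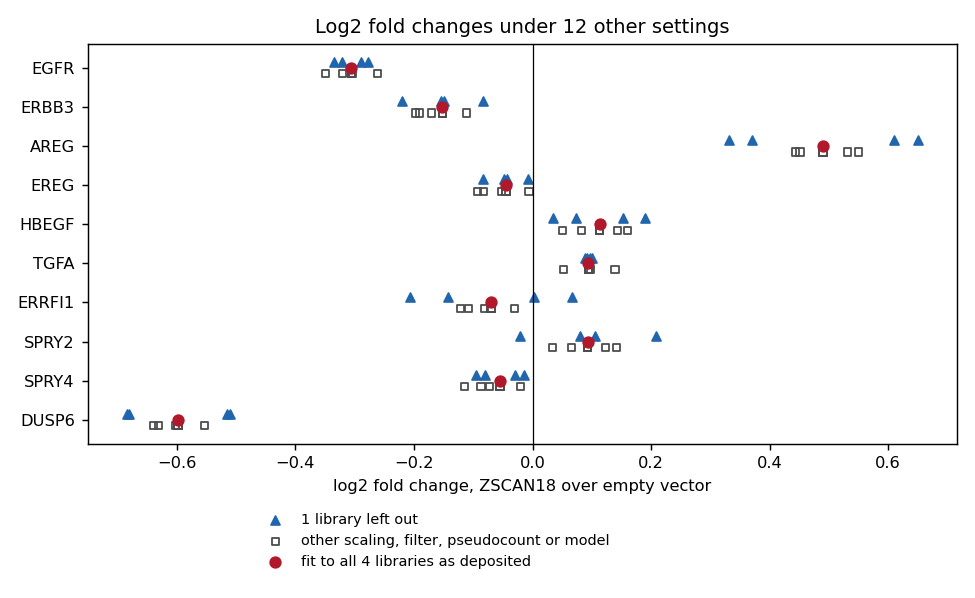
Log2 fold change of each of the 10 genes, ZSCAN18 over empty vector (horizontal axis), in the fit to all 4 libraries (circles), with 1 library left out (triangles) and under 8 other choices of scaling, filter, pseudocount or model (squares). DUSP6 and EGFR stay below 0 and AREG above 0 throughout, whereas ERRFI1 and SPRY2 change sign when 1 library is left out.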

How the data were processed

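Total RNA was extracted with Trizol, per the labels' protocols. Tools named in the submitters' processing notes, with no role, are HISAT2 2.0.4, StringTie 1.3.4d, DESeq2, edgeR 3.2.5, FastQC 0.10.1 and cutadapt 1.9. The single table the authors deposited holds, per the file headers, FPKM for each library and a linear fold change (ratio), its log2 value, a p-value and a q-value from their own comparison, which were only described. No source used here names the genome build. Of the table's gene identifiers, 58394 gene identifiers were found in GENCODE release 29, and 99.81% of these lay on the same chromosome with a start within 100 kb, so positions are taken to be GRCh38.

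Since FPKM are no counts, a count model was not used. The fit was made with limma 3.58.1 (R 4.3.3) on log2(FPKM + 1), with a group term and an intensity trend (2 residual and 2.01 prior degrees of freedom), and was tested on simulated data. The smallest p that an exact permutation test allows for 2 against 2 is 0.333. Depth was estimated by assuming that the most common FPKM times length of single-exon genes, in a window of 10000000 to 60000000 fragments, is 1 fragment, so it rests on that assumption. Members and lists were chosen with earlier results of these data known. Named genes were the members, ERBB2, ZSCAN18, up to 3 genes per pathway list with the smallest p and the 3 genes nearest to DUSP6; others named were chosen after their values were seen. The alternatives were another pseudocount, 2 filters, 3 scalings, no variance trend, the replicate number as a block, and each library left out. RefSeq windows were found for 9 of the 10 members; of several starts the first listed was used.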

Additional observations from a re-analysis of the deposited data

How the results depend on the processing

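The number of members past the test was 0 under all 12 alternatives. The number of all genes past it was 209 in the fit as reported, 1 with no filter on low FPKM, 99 with no variance trend, 1 with the replicate number as a block, and 0 to 1 with 1 library left out; between 2106 and 2387 genes had an unadjusted p under 0.05 in the last. Settings that leave out a library use fewer samples; the cause of the other differences was not tested. The replicate order of the ZSCAN18 libraries is not known, so the block and the pairing check use the numbers in the table's own column names. Libraries with the same number there did not deviate together from their group means (r = 0.034 across 11822 genes), which gives no sign of pairing. With the block, as with no filter on low FPKM, only 1 gene of the whole table passed. The unchanged 0 for the members therefore says little under either setting, or with 1 library left out. The median log2 fold change of the members, -0.05, was -0.104 after quantile normalization and -0.083 to 0.009 with 1 library left out. The sign of ERRFI1 and SPRY2 turned with 1 library left out, over ranges of -0.207 to 0.067 and -0.021 to 0.208; the other 8 members kept their sign in all 12. The 7 pathway lists had 0 genes past the test under every alternative that kept all libraries, which says as little where only 1 gene passed. Of these lists, 5 kept the sign of their median in all 12 alternatives. The exceptions were the other ligands and the further ERK-responsive genes. By the estimate from the longest transcripts, depth limits SPRY2 and HBEGF most.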

Other observations

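Some genes of the pathway differed more between libraries of the same group than between the groups; they were chosen after their values were seen. PHLDA1, an ERK-responsive gene, had an FPKM of 32.3 and 11.9 with ZSCAN18, against 12.5 and 36.4 with the empty vector. GRB2, the adaptor that links receptors to SOS proteins, had 20.8 and 18.5 with ZSCAN18, against 46.5 and 14.3 with the empty vector. In both genes the groups overlapped, and their log2 fold changes had an SE of 0.712 and 0.583. Among the 11822 tested genes, 404 differed by more than 2-fold between the ZSCAN18 libraries and 465 between the empty vector libraries, and among the 3773 with a mean FPKM of at least 10 it was 58 and 57. The largest such ratio among the 10 genes described here was 1.29, in SPRY2.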
